A study of Homo sapiens with 29 samples.

Results

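The Notch pathway genes described here were 10 genes chosen by name: the transcriptional effectors HEY1, HEYL, HES1 and HES6, the receptors NOTCH1, NOTCH2 and NOTCH3, and the ligands DLL1, JAG1 and JAG2. HEY1 was picked out by its values on the 24 h arrays, where it was among the largest increases, so the 24 h values below are a description without a test. All 10 genes were chosen with earlier results of these data known, so the shares called at other times are not independent support. The 10 genes had 17 probes, all named through the RefSeq accession of the probe, out of 22439 genes with a named probe. All 10 genes passed the filter on dim probes, as did 18398 genes in all.

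LHCN-M2 is a clonal human myoblast line immortalized with telomerase and CDK4, and it differentiates into myotubes when serum is withdrawn. The cells carried 20 nM nontargeting siRNA or a 20 nM ZNF148 siRNA pool, and no group was left untransfected. The arrays sampled 24 h (subconfluent), 48 h and 96 h (confluent) in growth media, and 48 h and 96 h in differentiation media, which gave 10 groups and 29 arrays. There were 3 arrays per group, labelled as biological replicates, and the single exception, 96 h in growth media under nontargeting siRNA, had 2. All 24 h arrays shared a slide that held no later array, so 24 h and slide cannot be told apart. At 96 h in growth media both nontargeting arrays shared a slide with 1 ZNF148 siRNA array of that group. The other 2 ZNF148 siRNA arrays were on another slide, so siRNA and slide are partly mixed there. Differentiation media were applied after transfection, so the time since transfection and the media cannot be told apart between growth and differentiation media of the same hour. A value is the log2 of the background-subtracted brightness of a probe, quantile normalized over all arrays. A gene was called when limma's moderated test gave a Benjamini-Hochberg adjusted p under 0.05 over all tested probes and the change was more than 2-fold, and its brightest tested probe stood for it.

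In Notch signaling, a ligand of the Delta-like (DLL) or Jagged (JAG) family on a cell binds a NOTCH receptor on its neighbor. The receptor is then cleaved, and its intracellular part enters the nucleus, where it joins the DNA-binding protein RBPJ and activates target genes, among them the basic helix-loop-helix repressors of the HES and HEY families. In skeletal muscle, Notch signaling keeps satellite cells and myoblasts undifferentiated, and HEY1 and HEYL are its usual targets there. HES6 is unlike the other effectors, because it is induced in differentiating cells and opposes HES1.

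The RefSeq table held a promoter for 8 of the 10 genes (GRCh38.p14); HEY1 and DLL1 are named only. In the 250 bases before the start, the RBPJ core TGGGAA was found, on either strand, at 2 places each in HES1 and HEYL and at 0 in the other 6, against 20.8% of 35116 promoters with at least 1. The E-box CANNTG, which basic helix-loop-helix factors bind, was found at 1 place in HES6, at 2 in JAG2 and at 0 in the other 6, against 61.8% of all promoters. The GC box GGGCGG, the letters of Sp1 family sites, was found in 7 of the 8, with HES1 as the exception, against 42.6% of all promoters, and NOTCH3 held the most with 5. These matches describe letters and not binding. Of these matches, only GC boxes overlapped each other, by 1 base in NOTCH1 and in NOTCH3. Below are the 4 promoters of the effectors and the receptor that the results turn on, with capitals for TGGGAA in HES1 and HEYL, for CANNTG in HES6 and for GGGCGG in NOTCH3.
HES1, chr3:194135898-194136147, plus strand: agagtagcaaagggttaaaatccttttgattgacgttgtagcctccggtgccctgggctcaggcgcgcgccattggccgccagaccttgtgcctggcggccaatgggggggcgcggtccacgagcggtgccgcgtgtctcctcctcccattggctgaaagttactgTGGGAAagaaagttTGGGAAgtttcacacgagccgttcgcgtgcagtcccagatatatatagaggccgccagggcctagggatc
HEYL, chr1:39639644-39639893, minus strand: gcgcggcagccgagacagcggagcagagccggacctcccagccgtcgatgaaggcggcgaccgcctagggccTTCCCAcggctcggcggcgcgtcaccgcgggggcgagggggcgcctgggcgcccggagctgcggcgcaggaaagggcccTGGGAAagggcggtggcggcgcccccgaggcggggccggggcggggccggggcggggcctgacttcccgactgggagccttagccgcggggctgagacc
HES6, chr2:238240039-238240288, minus strand: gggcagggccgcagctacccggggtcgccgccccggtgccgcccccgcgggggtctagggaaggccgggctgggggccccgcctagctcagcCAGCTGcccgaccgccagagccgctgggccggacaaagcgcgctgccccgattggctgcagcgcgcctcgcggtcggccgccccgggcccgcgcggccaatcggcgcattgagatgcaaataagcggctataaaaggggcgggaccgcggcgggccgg
NOTCH3, chr19:15200996-15201245, minus strand: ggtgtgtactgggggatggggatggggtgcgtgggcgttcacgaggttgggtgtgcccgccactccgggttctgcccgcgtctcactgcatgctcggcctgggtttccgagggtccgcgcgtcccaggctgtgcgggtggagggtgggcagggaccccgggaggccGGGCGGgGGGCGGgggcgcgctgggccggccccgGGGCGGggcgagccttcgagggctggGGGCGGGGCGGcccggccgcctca

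ZNF148, the targeted gene, was lower with ZNF148 siRNA in all 5 comparisons on both of its probes. On one probe it fell by 1.53 (log2) at 24 h and fell by 2.74 at 96 h in differentiation media. Depending on the array, 41.5% to 56.5% of probes exceeded background by the scanner software's criterion, called well above background here. Of 9 tested markers of differentiating muscle, the median signal of an array was between 4.83 and 5.13 in both groups at 24 h, and between 17.27 and 17.93 on every later ZNF148 siRNA array. The nontargeting arrays had 11.41 to 11.51 at 96 h in growth media, 10.78 to 12.47 at 48 h in differentiation media and 14.73 to 14.85 at 96 h. At 48 h in growth media, nontargeting replicate 1 stood apart from the other 2, with 16.03 against 8.55 and 8.70, and its HEY1, HES6 and NOTCH3 values below stood apart as well. On both ZNF148 probes that array had the lowest signal of the nontargeting arrays, 8.51 and 7.80, against 6.53 to 6.91 and 5.88 to 5.96 with ZNF148 siRNA at the same time. Its muscle marker median of 16.03 was also above that of every other nontargeting array. Whether its siRNA, time and media are as labelled was not tested, which bears on every 48 h value in growth media. Through the spread shared by all groups, the array also bears on the SE, interval and p of every other comparison. Where leaving it out decides a call of the 10 genes on their brightest probes, or moves a change there by over 1.5 times, the value without it is given. The shares of all tested genes come from the fit of all arrays. Counts without that array have no such share beside them, so nothing is read from those counts. PAX7, the satellite cell marker, was between 3.84 and 5.90 on all arrays and well above background on some of them, while MYF5 was well above background on all. The median of 6 mural cell markers, a list that holds NOTCH3, was between 8.08 and 9.26 with nontargeting siRNA at 48 and 96 h. With ZNF148 siRNA it was between 10.43 and 10.91. The value of 9.26 was that of the array that stood apart, and NOTCH3 itself was lower with ZNF148 siRNA in differentiation media. The 6 fibroblast markers were above background on every array, with a median of 11.51 to 11.52 with nontargeting siRNA against 12.46 to 12.50 with ZNF148 siRNA at 24 h, and the other way round, 12.32 to 13.10 against 11.28 to 12.10, at 48 and 96 h. The 7 myoblast markers had medians of 13.02, 13.04 and 14.98 against 16.13 to 16.22 at 48 h in growth media and of 14.09 to 14.12 against 15.87 to 15.94 at 96 h, with the highest nontargeting value at 48 h on the array that stood apart. In differentiation media they had 15.24 to 15.65 against 15.90 to 16.09, and at 24 h 13.66 to 13.81 against 13.37 to 13.52. The part of these marker genes in the results below was not tested. In such bulk RNA, fewer cells of a type and less RNA per cell cannot be told apart.

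At 24 h in growth media, 6 of the 10 genes were more than 2-fold higher with ZNF148 siRNA and 0 more than 2-fold lower, a size that 8.62% of all tested genes passed in either direction. They were HEY1, HEYL, HES1, HES6, NOTCH3 and JAG1, and the median of the 10 was 1.56 on the log2 scale, against -0.00074 over all tested genes. The genes were chosen with this contrast in view, so nothing is read from the count. At 48 h in growth media, 8 of the 10 were called, against 23.9% of all tested genes. The count was 7 without the array that stood apart, and 6 or 7 whenever 1 of the 6 arrays was left out. HEY1, HEYL, HES1, HES6, NOTCH3 and JAG1 rose, and NOTCH2 and JAG2 fell on their brightest probes. Later in growth media, at 96 h, 5 were called, against 24.7% of all tested genes, with HEY1, HES6, NOTCH3 and JAG1 higher and NOTCH2 lower. In differentiation media more of the called genes were lower than higher on their brightest probes. At 48 h this rests on JAG2, whose probes disagreed. At 48 h there, 5 were called, against 32.4% of all tested genes, with HES6 and JAG1 higher and NOTCH2, DLL1 and JAG2 lower. At 96 h, 4 were called, against 23.3% of all tested genes, and HEY1, NOTCH2, NOTCH3 and DLL1 all fell. The median of the 10 genes was 1.26 at 48 h and 0.85 at 96 h in growth media, and -0.45 and -0.75 in differentiation media, against medians over all tested genes of -0.05, -0.03, -0.05 and -0.06.

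**Figure D1:**
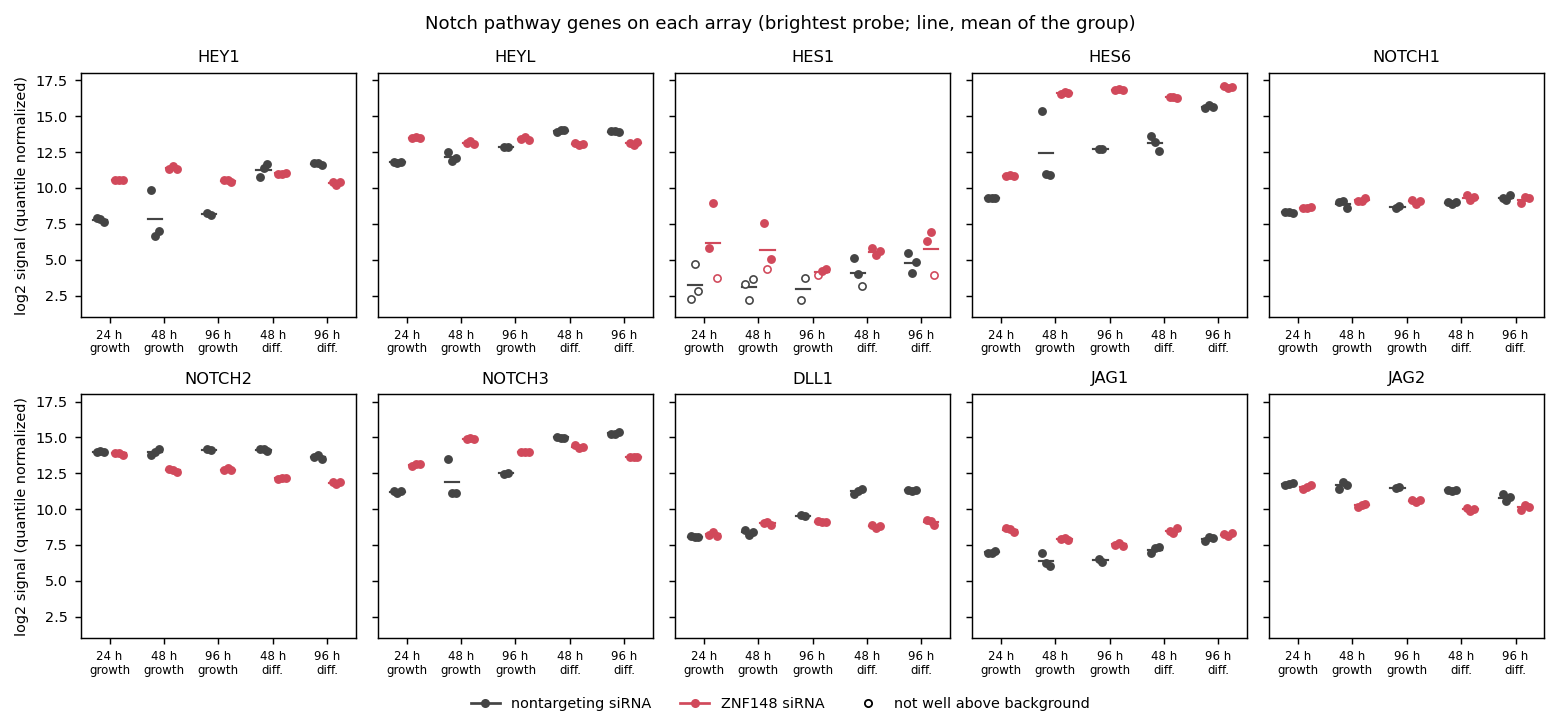
Log2 signal (quantile normalized) of the brightest probe of each of the 10 genes on all 29 arrays, by time and media, with nontargeting siRNA in grey and ZNF148 siRNA in red; lines are group means and open circles are arrays on which the probe was not well above background. HEY1 and NOTCH3 sit higher with ZNF148 siRNA in growth media and lower at 96 h in differentiation media, and NOTCH2 sits lower at 48 and 96 h in both media.

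HEY1, a repressor induced by Notch, rose at 48 and 96 h in growth media and fell at 96 h in differentiation media. At 24 h the nontargeting arrays read 7.90, 7.85 and 7.63 and the ZNF148 siRNA arrays 10.58, 10.56 and 10.53 (n = 3 and 3), a difference of 2.76 ± 0.48 or 6.79-fold. Here and below, ± is the SE of the limma fit, whose spread for a probe is pooled over all 10 groups. The SD was 0.143 and 0.0246 in these 24 h groups, against 1.79 with nontargeting siRNA at 48 h in growth media. The nontargeting arrays at 48 h in growth media read 9.88, 6.63 and 6.97, against 11.34, 11.51 and 11.32 with ZNF148 siRNA. The groups did not overlap, and the first nontargeting array lay well above the other 2. HEY1 rose by 3.57 ± 0.48 or 11.8-fold (limma adjusted p = 1.93e-06), and by 4.59 without that array. Within the 3 slides, each with an array of both groups, the difference was 4.69, 1.63 and 4.37. At 96 h it read 8.28 and 8.12 against 10.54, 10.56 and 10.45, a rise of 2.32 ± 0.53 (limma adjusted p = 0.00105).

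In differentiation media, HEY1 was already high with nontargeting siRNA. At 48 h it read 10.79, 11.38 and 11.68 with nontargeting siRNA and 11.00, 11.00 and 11.08 with ZNF148 siRNA. The groups overlapped, with a difference of -0.26 and a 95% interval of -1.25 to 0.74 (limma adjusted p = 0.718, and 0.16 without the nontargeting array that stood apart in growth media). At 96 h the nontargeting arrays read 11.74, 11.74 and 11.62 and the ZNF148 siRNA arrays 10.43, 10.19 and 10.39. These groups did not overlap, and HEY1 fell by 1.36 ± 0.48 (limma adjusted p = 0.0223). The adjusted p was 0.0522, 0.0527 and 0.0622 without nontargeting replicate 1, nontargeting replicate 2 or ZNF148 siRNA replicate 2 of that time, with differences of -1.34, -1.34 and -1.29, and 1.1e-07 in a fit without the nontargeting array that stood apart at 48 h. Across all groups, HEY1 with ZNF148 siRNA stayed between 10.19 and 11.51, while with nontargeting siRNA it ran from 6.63 to 11.74.

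HEYL, the related repressor, was bright on all arrays and moved less. At 24 h it read 11.84, 11.73 and 11.81 with nontargeting siRNA and 13.49, 13.56 and 13.50 with ZNF148 siRNA, a difference of 1.72 ± 0.11 (SE). By 48 h in growth media it read 12.53, 11.89 and 12.06 against 13.16, 13.27 and 13.07, and the groups did not overlap. HEYL rose by 1.00 ± 0.11 (limma adjusted p = 8.43e-08), which is barely 2-fold. The change was 1.19 without the nontargeting array that stood apart, and it was under 2-fold without nontargeting replicate 2 (0.87), without nontargeting replicate 3 (0.95) or without ZNF148 siRNA replicate 2 (0.95). At 96 h in growth media the difference was 0.58 ± 0.12, under 2-fold (limma adjusted p = 0.000377). In differentiation media HEYL read 13.89, 14.04 and 14.02 with nontargeting siRNA and 13.12, 13.03 and 13.09 with ZNF148 siRNA at 48 h. All ZNF148 siRNA arrays were lower, with a difference of -0.91 ± 0.11 at 48 h and of -0.83 ± 0.11 at 96 h, both under 2-fold (limma adjusted p = 1.92e-07 and 1.12e-06).

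HES1, the classic Notch target with both RBPJ cores printed above, was dim and was well above background on 16 of 29 arrays. On all 8 nontargeting arrays in growth media it was not well above background. The ZNF148 siRNA arrays at 48 h in growth media read 7.53, 4.38 and 5.03, of which 2 were well above background, against 3.33, 2.20 and 3.67 with nontargeting siRNA. Each nontargeting value was replaced by the lowest above-background signal of its array if that was higher, which gave a rise of 2.73-fold. The ZNF148 siRNA values were left as measured, and not all were well above background, so this is not a lower limit. For the measured values the limma adjusted p was 0.0485, and 0.0711 without the array that stood apart. The call was lost in 14 of 19 alternatives, with adjusted p between 0.0284 and 0.264 over all of them, and the normexp background correction gave a difference of 0.66. At 24 h the ZNF148 siRNA arrays read 5.80, 8.93 and 3.73 and overlapped with the nontargeting values of 2.23, 4.68 and 2.84. The same replacement gave 3.07-fold there, again not a lower limit. Later in those media, at 96 h, HES1 read 3.93, 4.24 and 4.35 against 2.18 and 3.70, or 1.02-fold higher after the replacement (limma adjusted p = 0.449 for the measured values). In differentiation media the differences were 1.47 ± 1.04 at 48 h and 0.93 ± 1.04 at 96 h (limma adjusted p = 0.263 and 0.508).

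HES6, the effector that opposes HES1, was higher with ZNF148 siRNA in all 5 comparisons and in both media. Its 4 tested probes had the same direction throughout. At 24 h the brightest probe read 9.31, 9.33 and 9.32 with nontargeting siRNA and 10.83, 10.90 and 10.83 with ZNF148 siRNA, a difference of 1.53. The other 3 probes differed by 0.18, 1.45 and 0.96. At 48 h in growth media the nontargeting arrays read 15.36, 10.94 and 10.92 and the ZNF148 siRNA arrays 16.58, 16.66 and 16.65. The groups did not overlap, although the nontargeting array that stood apart came close. HES6 rose by 4.22 ± 0.67 (limma adjusted p = 1.74e-05), by 5.70 without that array and by 1.30 on the slide that held it, against 5.70 and 5.66 on the other 2 slides. In a fit of these 6 arrays alone the adjusted p was 0.0514.

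At 96 h in growth media HES6 read 12.71 and 12.72 against 16.85, 16.88 and 16.83, a rise of 4.14 ± 0.75 (limma adjusted p = 9.13e-05). At 48 h in differentiation media it read 13.63, 13.18 and 12.57 against 16.33, 16.35 and 16.28, a rise of 3.19 ± 0.67 (limma adjusted p = 0.000318). Later there, at 96 h, 15.56, 15.80 and 15.67 stood against a median of 17.06. All ZNF148 siRNA arrays were above all nontargeting arrays, and the difference of 1.38 ± 0.67 was not called on this probe (limma adjusted p = 0.0998). It was called without the nontargeting array that stood apart at 48 h (limma adjusted p = 1.18e-07), and the other 3 probes of HES6 were called with differences of 1.36, 2.07 and 1.86. From 48 h on, HES6 with ZNF148 siRNA lay between 16.28 and 17.10 on every array.

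**Figure D2:**
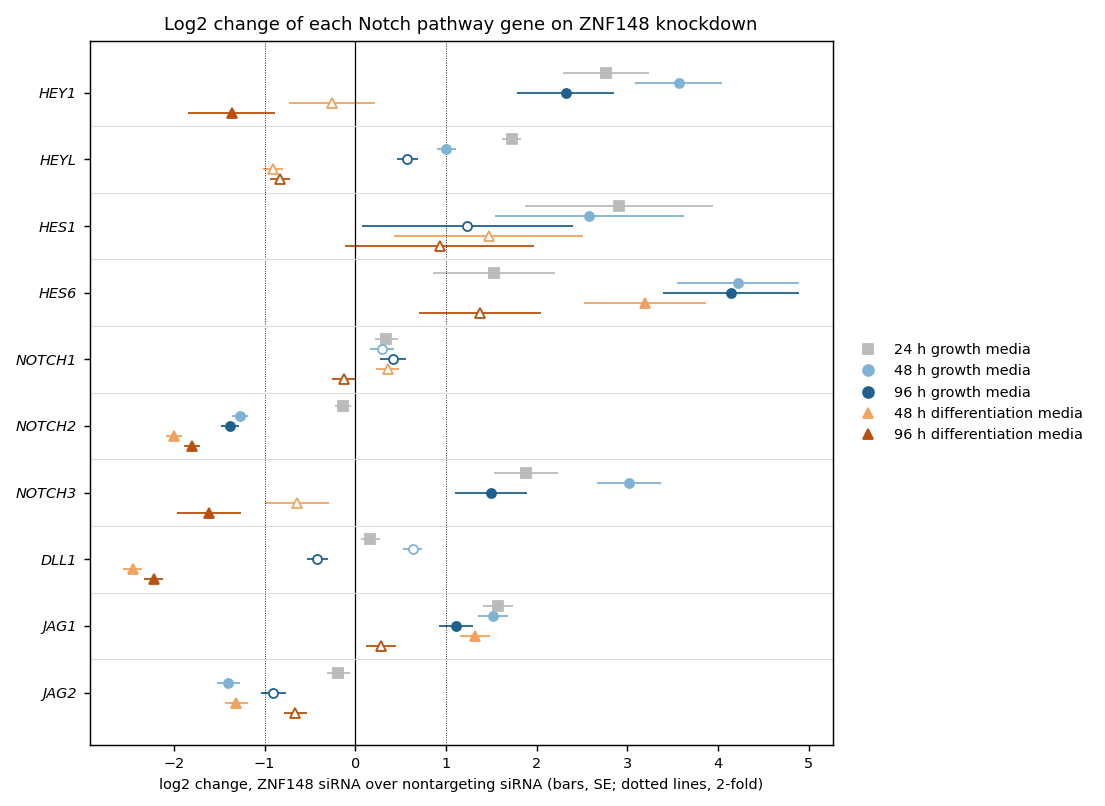
Log2 change of each gene, ZNF148 siRNA over nontargeting siRNA, in the 5 comparisons, with SE bars and dotted lines at 2-fold; grey squares (24 h) carry no test, and for the other comparisons filled points were called and open points were not. The effectors HEY1 and HEYL and the receptor NOTCH3 lie right of 0 in growth media and left of 0 in differentiation media, while HES6 and JAG1 lie right of 0 and NOTCH2 left of 0 throughout.

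Of the receptors, NOTCH3 changed in the same comparisons as HEY1. At 24 h it read 11.26, 11.11 and 11.24 with nontargeting siRNA and 12.99, 13.15 and 13.13 with ZNF148 siRNA, a difference of 1.89 ± 0.35 (SE). The nontargeting arrays at 48 h in growth media read 13.46, 11.13 and 11.09 and the ZNF148 siRNA arrays 14.91, 14.94 and 14.90. There was no overlap, and NOTCH3 rose by 3.02 ± 0.35 or 8.12-fold (limma adjusted p = 3.03e-07), and by 3.81 without the nontargeting array that stood apart. At 96 h it read 12.48 and 12.52 against 13.98 to 14.01, a rise of 1.50 ± 0.39 (limma adjusted p = 0.00342). In differentiation media the nontargeting arrays were the higher ones. They read 15.02, 14.97 and 14.98 at 48 h, against 14.46, 14.25 and 14.35, a difference of -0.64 ± 0.35 (limma adjusted p = 0.142, and 6.53e-09 without the array that stood apart, still under 2-fold). At 96 h they read 15.26, 15.20 and 15.35 against 13.67, 13.65 and 13.66, and NOTCH3 fell by 1.62 ± 0.35 (limma adjusted p = 0.000596).

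NOTCH2 fell with ZNF148 siRNA in both media. It did not differ by more than 2-fold at 24 h (13.97, 14.05 and 14.01 against 13.93, 13.93 and 13.77). By 48 h in growth media it read 13.79, 13.98 and 14.17 against 12.78, 12.75 and 12.62, and it fell by 1.27 ± 0.09. At 96 h in growth media it fell by 1.38 ± 0.10, and in differentiation media by 2.00 ± 0.09 at 48 h and by 1.79 ± 0.09 at 96 h. No groups overlapped in these 4 comparisons (largest limma adjusted p = 2.6e-10). The second probe of NOTCH2, which carries the accession of another NOTCH2 transcript, was lower by less than 2-fold at 48 h, with differences of -0.43 in growth media and -0.64 in differentiation media (limma adjusted p = 9.24e-05 and 3.36e-07). At 96 h its differences were 0.14 and 0.00063. A fall of more than 2-fold was thus seen on the first probe alone, and the average of both probes was under 2-fold at 48 h in growth media (-0.85), at 96 h in growth media (-0.62) and at 96 h in differentiation media (-0.90). NOTCH2 has near-identical NOTCH2NL copies, and whether the second probe also binds their transcripts was not tested.

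NOTCH1 moved little on its brighter probe, which read between 8.25 and 9.49 on all 29 arrays. Its differences were 0.34, 0.29, 0.42, 0.36 and -0.12 in the 5 knockdown comparisons, in the order 24, 48 and 96 h in growth media and 48 and 96 h in differentiation media, and none was called. Its dimmer probe differed by 0.77, 0.76, 0.16 and 0.93 in the first 4 of them, under 2-fold. At 96 h in differentiation media that probe read 7.37, 7.56 and 7.68 with nontargeting siRNA and 6.12 to 6.66 with ZNF148 siRNA, a fall of 1.11 ± 0.13 (limma adjusted p = 3.39e-07). Both probes carry the same accession, so NOTCH1 at 96 h in differentiation media is uncertain.

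Of the ligands, DLL1, which muscle cells use to signal to their neighbors, differed little in growth media and fell in differentiation media. At 24 h it read 8.11, 8.07 and 8.07 against 8.23, 8.39 and 8.14, and at 48 h in growth media 8.52, 8.19 and 8.40 against 9.03, 9.10 and 8.88. The groups did not overlap, and the difference of 0.63 ± 0.10 was under 2-fold (limma adjusted p = 2.63e-05). At 96 h in growth media DLL1 was lower with ZNF148 siRNA, at 9.19, 9.09 and 9.11 against 9.56 and 9.54, also under 2-fold (-0.42 ± 0.12, limma adjusted p = 0.00529). At 48 h in differentiation media the nontargeting arrays read 11.05, 11.27 and 11.41 and the ZNF148 siRNA arrays 8.87, 8.65 and 8.84. DLL1 fell by 2.45 ± 0.10 or 5.48-fold (limma adjusted p = 1.84e-14). At 96 h it read 11.33, 11.28 and 11.34 against 9.27, 9.14 and 8.89, a fall of 2.22 ± 0.10 (limma adjusted p = 2.68e-13). With ZNF148 siRNA, DLL1 read between 8.14 and 9.27 on all arrays, whatever the media.

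JAG1 was higher with ZNF148 siRNA in the first 4 comparisons. At 24 h it read 6.92, 6.95 and 7.10 against 8.67, 8.62 and 8.41, a difference of 1.58 ± 0.17 (SE). It rose by 1.52 ± 0.17 at 48 h and by 1.11 ± 0.19 at 96 h in growth media (limma adjusted p = 1.15e-07 and 3.24e-05), and by 1.32 ± 0.17 at 48 h in differentiation media (limma adjusted p = 4.8e-07). With normexp background correction the rise at 96 h in growth media was 0.80 and under 2-fold. At 96 h in differentiation media it read 7.77, 8.07 and 7.96 against 8.23, 8.10 and 8.33. These groups did not overlap, but the difference of 0.28 had a 95% interval of -0.06 to 0.63 (limma adjusted p = 0.171).

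The probes of JAG2 disagreed. The brightest of the 3 read 11.37, 11.92 and 11.70 with nontargeting siRNA and 10.16, 10.29 and 10.34 with ZNF148 siRNA at 48 h in growth media, and fell by 1.40 ± 0.13 there and by 1.31 ± 0.13 at 48 h in differentiation media (limma adjusted p = 9.22e-09 and 1.02e-08). The second probe read 8.67, 4.95 and 4.81 against 10.24, 10.06 and 10.40 on the same arrays at 48 h in growth media. This probe rose by 4.09 ± 0.67 there, by 2.99 ± 0.75 at 96 h and by 4.07 ± 0.67 at 48 h in differentiation media (limma adjusted p = 2.67e-05, 0.00237 and 2.13e-05), and it differed by 0.13 at 96 h in differentiation media. Its nontargeting value of 8.67 is that of the array that stood apart, and without it the rise at 48 h in growth media was 5.36. The third probe, which shares the accession of the first, was dim at 5.07 to 7.32 and was not called in any knockdown comparison. The average of the 3 probes was 0.94 at 48 h in growth media and 0.93 in differentiation media, with the sign of the second probe. The first and second probes carry accessions of different JAG2 transcripts, and no direction is given here for the gene as a whole.

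**Figure D3:**
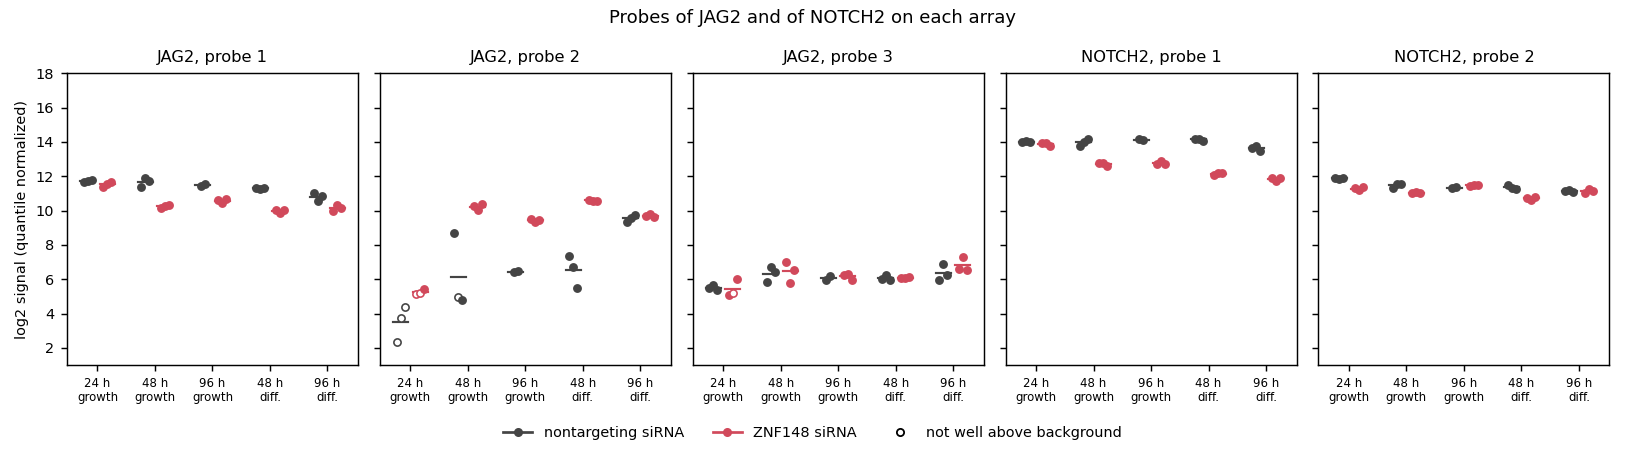
Log2 signal (quantile normalized) of the 3 tested probes of JAG2 and both probes of NOTCH2 on all 29 arrays, numbered from the brightest, with groups, lines and open circles drawn by siRNA as labelled. JAG2 probe 1 sits lower and probe 2 higher with ZNF148 siRNA at 48 h in both media, and NOTCH2 probe 1 sits lower from 48 h on while probe 2 stays within 10.63 to 11.92.

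In cells with nontargeting siRNA, the genes that changed were higher in differentiation media than in growth media. At 48 h, 4 of the 10 genes were called, against 16% of all tested genes, and HEY1, HEYL, NOTCH3 and DLL1 all rose, by 11-fold, 3.54-fold, 8.56-fold and 7.32-fold (largest limma adjusted p = 3.68e-06). Without the nontargeting array that stood apart, the rise was 22.4-fold for HEY1 and 14.7-fold for NOTCH3, and 6 genes were called, as HES6 (2.20) and JAG1 (1.02) joined them. With all arrays, these 2 genes differed by 0.72 (limma adjusted p = 0.466) and 0.76. At 96 h, 6 genes rose, against 15.1% of all tested genes called. They were HEY1 (3.50), HEYL (1.09), HES6 (2.96), NOTCH3 (2.78), DLL1 (1.77) and JAG1 (1.51). HEYL was under 2-fold when the arrays were scaled to their 75th percentile (0.88). The dimmer NOTCH1 probe and the second JAG2 probe were also higher at 96 h, by 1.55 and 3.12. This comparison shares its nontargeting arrays with the knockdown comparisons above.

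The knockdown effect itself differed between the media. At 48 h, 4 of the 10 genes were called for a difference between the effect in differentiation media and that in growth media, against 17.2% of all tested genes, and all 4 were lower in differentiation media. The difference was -3.82 ± 0.68 for HEY1, -1.91 ± 0.15 for HEYL, -3.66 ± 0.50 for NOTCH3 and -3.08 ± 0.15 for DLL1 (limma adjusted p = 0.000115, 2.41e-09, 5.03e-06 and 1.72e-12). Without the nontargeting array that stood apart, it was -4.85 for HEY1 and -4.44 for NOTCH3, and HES6 was called too (-2.50, against -1.03 with it). At 96 h, 4 were called, against 12.5% of all tested genes, and these were HEY1 (-3.68), HEYL (-1.41), NOTCH3 (-3.11) and DLL1 (-1.80) again, with HES6 at -2.76 (limma adjusted p = 0.0507) and called without that array. For HEY1 and NOTCH3 the sign of the effect also turned, from a called rise in growth media to a called fall in differentiation media at 96 h. For the other genes, the 95% interval of the difference at 48 h was -4.19 to 1.97 for HES1, -0.32 to 0.45 for NOTCH1, -0.99 to -0.47 for NOTCH2, -0.69 to 0.29 for JAG1 and -0.29 to 0.46 for JAG2.

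**Figure D4:**
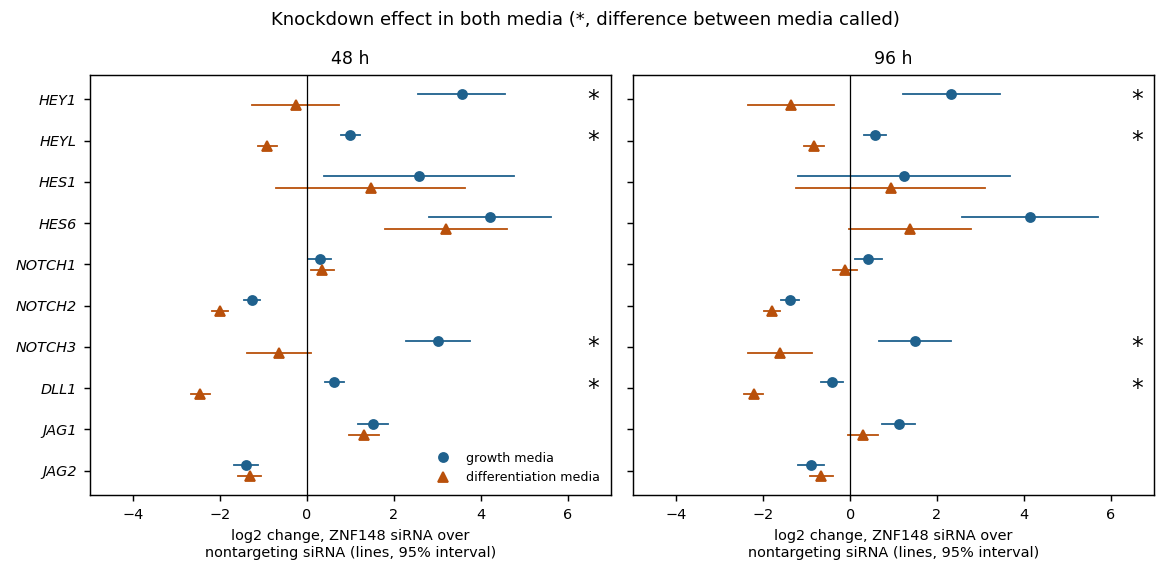
Log2 change with ZNF148 siRNA over nontargeting siRNA in growth media (circles) and differentiation media (triangles) at 48 h and 96 h, with 95% intervals; an asterisk marks a called difference between the media. The pairs lie far apart for HEY1, NOTCH3 and DLL1, less so for HEYL, and close together or with overlapping intervals for HES1, NOTCH1, JAG1 and JAG2 at 48 h.

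Between 48 and 96 h in growth media, the effect of ZNF148 siRNA was called different for 1 gene, against 5.01% of all tested genes. This was DLL1, whose effect differed by -1.05 ± 0.16 (96 h minus 48 h, limma adjusted p = 9.31e-05). The value was -0.96 without nontargeting replicate 2 at 48 h and under 2-fold. Without nontargeting replicate 1 at 48 h, 4 genes were called, as HEY1 (-2.27), HES6 (-1.56) and NOTCH3 (-2.31) joined DLL1 (-1.12). The share of all tested genes called without that array is not given, so nothing is read from this count.

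The rest of the pathway was read from a list of 58 other genes, and 53 of them passed the filter on dim probes. At 24 h, 2 rose and 1 fell, against 5.54% of all tested genes called. In growth media 10 rose and 4 fell at 48 h, and 9 rose and 6 fell at 96 h. In differentiation media 9 rose and 11 fell at 48 h, and 8 rose and 7 fell at 96 h. These shares lie near those of all tested genes, and the medians of the 53 genes were between -0.13 and 0.09. Of the 8 tested genes of the nuclear complex, 0 were called at 48 h in growth media, against 23.9% of all tested genes, and 1 in each later comparison, against 24.7% and, in differentiation media, 32.4% and 23.3%. These were RBPJ, which fell by 1.16 at 96 h in growth media, and the acetyltransferases KAT2B, which rose by 1.19 at 48 h, and KAT2A, which fell by 1.00 at 96 h in differentiation media. These genes and those in the next sentence were picked after their values were seen. NOTCH4, a receptor of endothelial cells, fell in differentiation media by 1.26 at 48 h and by 1.44 at 96 h, and PSEN2, a catalytic subunit of gamma-secretase, rose in growth media by 1.53 at 48 h and by 1.54 at 96 h.

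The rule for this list named 12 genes. They were called in at least 2 of the 4 later knockdown comparisons and had the largest mean absolute change over them. Large changes and small p there follow from that choice, so the values below are a description. NRARP, a Notch target that limits the NOTCH intracellular domain, was dim with nontargeting siRNA and rose in all 4 later comparisons, by 4.32 ± 0.64 at 48 h and 3.28 ± 0.71 at 96 h in growth media and by 6.32 ± 0.64 and 3.46 ± 0.64 in differentiation media (largest limma adjusted p = 0.000617). At 48 h in growth media its nontargeting arrays ran from 3.63 to 7.43 and its ZNF148 siRNA arrays from 9.11 to 9.32. LFNG, a glycosyltransferase that tunes which ligand a receptor answers, rose by 1.95, 2.95, 2.62 and 2.91 in the same order. DTX4, of the Deltex family of ubiquitin ligases, rose by 3.31 in growth media and 2.54 in differentiation media at 48 h. At 96 h its nontargeting arrays were not well above background in either medium, and it was at least 7.45-fold higher in growth media and at least 6.06-fold higher in differentiation media (limma adjusted p = 1.27e-06 and 4.38e-06). FBXW7, the ubiquitin ligase subunit that marks the NOTCH intracellular domain for degradation, rose in all 5 comparisons, from 1.11 at 24 h to 1.89 at 48 h in differentiation media. HES4, an effector, rose by 3.80, 4.82 and 1.95 and differed by 0.29 at 96 h in differentiation media, where its nontargeting arrays had reached 14.26 to 14.36. Without the array that stood apart, the rises at 48 h in growth media were 5.57 for NRARP, 4.18 for DTX4 and 4.88 for HES4.

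The noncanonical ligand DLK1 rose by 2.06 ± 0.23 and 4.66 ± 0.25 at 48 and 96 h in growth media and by 2.92 ± 0.23 and 4.50 ± 0.23 in differentiation media, on arrays that read 5.96 to 7.86 with nontargeting siRNA and 8.93 to 11.11 with ZNF148 siRNA. Its relative DLK2 went the other way and fell by 1.66 at 48 h in growth media and by 2.25 and 3.17 in differentiation media, with a difference of 0.17 at 96 h in growth media. DLL3, a ligand that does not activate receptors on neighbors, fell by 1.04 at 24 h and by 2.88, 1.62 and 2.03 in the next 3 comparisons. NEURL1B, a ubiquitin ligase for ligand endocytosis, fell in all 4 later comparisons, by 3.12, 4.08, 2.25 and 1.93. The corepressors TLE1 and TLE3 moved in opposite directions. TLE1 fell by 1.58, 2.00 and 1.75 and TLE3 rose by 1.85 at 48 h in growth media and by 2.12 at 48 h in differentiation media. DTX3L rose by 1.23 at 96 h in growth media and fell by 1.80 at 48 h in differentiation media.

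**Figure D5:**
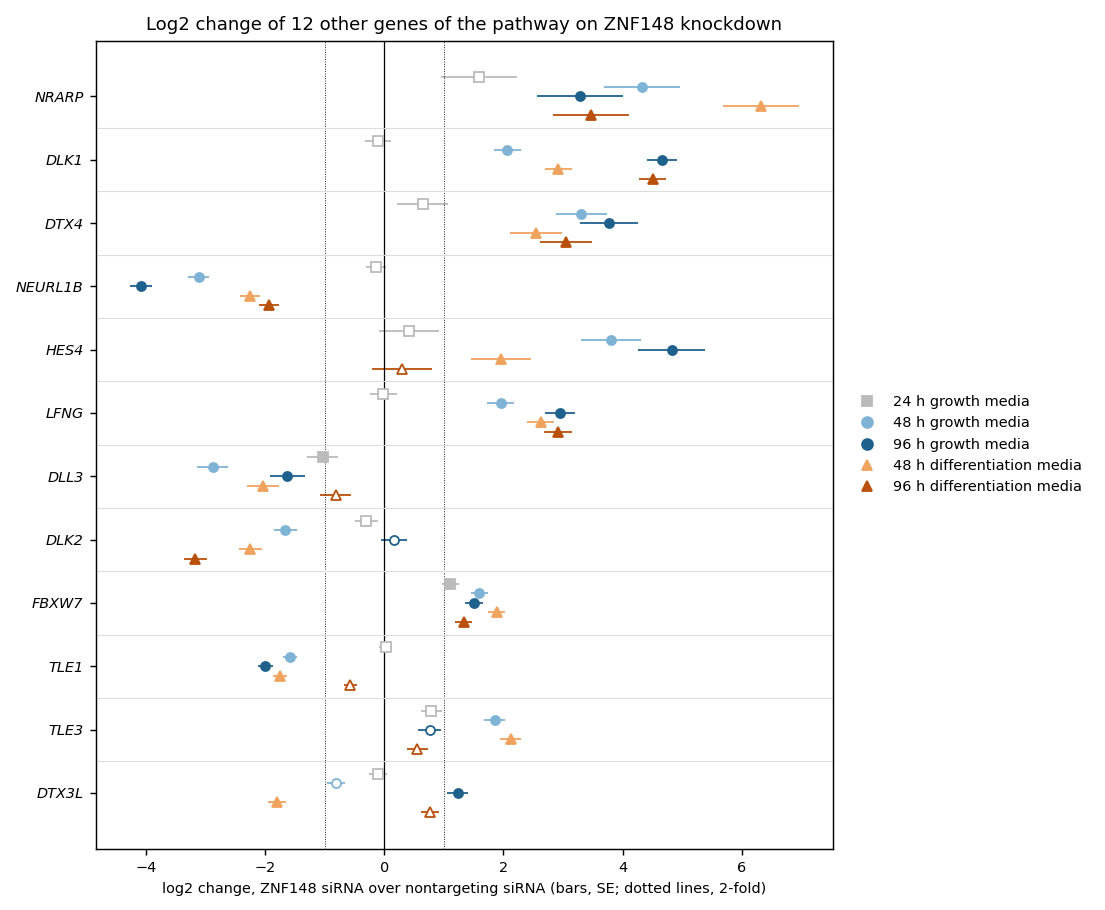
Log2 change, ZNF148 siRNA over nontargeting siRNA, of the 12 other genes of the pathway named by rule, in the 5 comparisons, with SE bars and dotted lines at 2-fold; filled points were called and open points were not. NRARP, DLK1, DTX4, LFNG and FBXW7 lie right of 1 and NEURL1B left of -1 in all 4 comparisons at 48 and 96 h. For DTX4 the points at 96 h are measured differences against arrays not well above background.

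By the shape of the 10 group means, the genes most like HEY1 were DVL3 (Pearson r = 0.96), HEMK2 (0.96), NOTCH3 (0.95), MAP3K14 (0.95) and AJUBA (0.95). This likeness is a description over 10 groups that share slides and normalization. The array that stood apart enters the mean of nontargeting siRNA at 48 h in growth media, here and for the pairs below. Within the 10 genes, the closest pairs were HES1 with JAG1 (0.96), HEY1 with NOTCH3 (0.95) and NOTCH2 with JAG2 (0.93), on the brightest probes. HES1 was not well above background on any array in 3 of the 10 groups, so its values there have no order.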

How the data were processed

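RNA of 29 LHCN-M2 cultures in 10 groups was hybridized to 1-colour Agilent arrays. As deposited by the authors, the intensity of each spot was background-subtracted by Agilent Feature Extraction (10.7.3.1 per the file headers), with no scaling between arrays, together with a flag for spots well above background. A log2 matrix, quantile normalized by the authors, was deposited as well. Each of its 29 columns matched its own array best, on the same scale and without centring, with a median of 4.278 in every column, and it served as an alternative.

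Groups follow the sample labels. Analysis used limma 3.58.1 under R 4.3.3, and files were read through data.table (version 1.17.8). Control and outlier spots were left out of 62976 spots, log2 signals were averaged over the spots of each of 58201 probes and quantile normalized over all arrays, and a fit was made of 38714 probes that exceeded background on 2 or more arrays, with 10 group means (lmFit, eBayes, two-sided). Adjustment was Benjamini-Hochberg over all tested probes, at 0.05 and more than 2-fold. Differences between effects were contrasts in the same fit. RefSeq accessions named 31104 probes. The brightest tested probe stood for a gene. The number of arrays limits the precision.

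The members and the lists were chosen with earlier results of these data known. Named were the 10 genes, ZNF148, at most 12 other genes of the pathway that were called in at least 2 of the 4 later knockdown comparisons, by the largest mean absolute change, and the 5 genes most like HEY1. Marker lists were of myoblast, differentiating muscle, endothelial, mural and fibroblast genes. The 6 endothelial markers had array medians of 5.29 to 6.97. Array headers named hg19 on 14 arrays and no build on 15, and no array position was used. Alternatives were 75th percentile scaling, normexp with offset 50, the authors' matrix, no filter and a stricter one, the compared arrays only, a trended and robust prior, weights per array, the replicate number or the slide as block, each array left out, the array that stood apart left out of every fit, the methods' t-test, no fold threshold and the mean of a gene's probes. On simulated data with 100 probes changed by 3 on the log2 scale, out of 38714, the 48 h growth media comparison recovered 88, and 67 of 100 changed by 1.5, with 6 false calls. Only 200 probes were changed there, with independent normal noise and no array apart, whereas 7807 probes were called in the data. These rates describe the simulation and not the error of the results above.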

Additional observations from a re-analysis of the deposited data

Results flagged for a closer look

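The difference of the knockdown effect between media was past the threshold for 4 genes at both times, by a test of the difference itself. At 48 h it was -3.82 for HEY1, -1.91 for HEYL, -3.66 for NOTCH3 and -3.08 for DLL1 on the log2 scale (differentiation minus growth media), and -4.85 for HEY1 and -4.44 for NOTCH3 without the nontargeting array that stood apart. At 96 h it was -3.68 for HEY1, -1.41 for HEYL, -3.11 for NOTCH3 and -1.80 for DLL1. Between 96 and 48 h in growth media it was -1.05 for DLL1. Markers of differentiating muscle also stood at different levels in the nontargeting cultures of both media, and their part in these differences was not tested. Single outlying arrays were not tested, since no group held more than 3.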

How the results depend on the processing

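Of 41 called gene results from 48 h on, 25 kept their call and direction under all alternatives run, 14 lost the call under at least 1, and 2 reversed. The reversed ones were JAG2 at 48 h with the mean of a gene's probes, at 0.94 in growth media and 0.93 in differentiation media. Of 49 uncalled results, 9 were called under at least 1 alternative. With no fold threshold, the other pathway genes called numbered 19, 33, 33, 35 and 39 in the 5 knockdown comparisons in time order, growth media first, against 3, 14, 15, 20 and 15. The 10 genes called became 9 instead of 5 at 96 h in growth media and 7 instead of 4 for the difference between media at 96 h. The shares of all tested genes called with no fold threshold are not given, so nothing is read from these counts about the pathway. With normexp, 1 of the other pathway genes was called at 24 h. At 48 h in growth media, 4 of the 10 genes were called with the methods' t-test after Benjamini-Hochberg adjustment and 5 with the mean of a gene's probes, against 8. The t-test did not call HEY1, HES1, HES6 and NOTCH3 there. The same t-test called 2, against 4, between media under nontargeting siRNA at 48 h, without HEY1 and NOTCH3. For the difference between 96 and 48 h in growth media, 0 were called with slide as a block, 3 with array weights and 4 without nontargeting replicate 1 at 48 h, against 1, and leaving out 1 array at a time gave 0 to 4. Leaving out 1 array moved the other counts of the 10 genes by at most 2. The fits without 1 nontargeting array at 96 h in growth media leave a lone array, which is assumed to vary like the other groups. The replicate number as a block changed 1 count, the difference between media at 96 h, from 4 to 5. Same-numbered arrays correlated between -0.15 and 0.12 in their deviations from the group means, and the main fit used no pairing. With so few arrays per group, these correlations cannot show whether same-numbered cultures were run together. Scaling to the 75th percentile moved the median change of all genes from -0.048 to 0.056 at 48 h in differentiation media, the widest such shift. Dim probes limit HES1, NRARP, DTX4 and the second JAG2 probe.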
